A study of Mus musculus with 11 samples.

Results

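Smoothened (Smo) and 9 genes that act with it or on the Gli transcription factors were followed through 11 poly(A) RNA libraries of SMB21 cells. The 10 genes are Smo, Kif7, Gpr161, Prkaca, Prkacb, Prkar1a, Gsk3b, Csnk1a1, Spop and Adrbk1 (named Grk2 in current annotation). They were listed by name, with earlier results of these data known, and all 10 were found among the 22619 genes of the count table. SMB21 is a mouse medulloblastoma line that grows as neurospheres. Every library, the controls included, carries the Ptch mutant background, and the labels give the strain background as Ptch1tm1Mps/J and the age as adult. Untreated parental cells gave 3 libraries and parental cells after 24 h with sonidegib gave 2. Sufu-mutant clones R13 and R1 gave 1 library each, and Ofd1-mutant clones gave 4, of which R14 gave 2 and R16 and R25 gave 1 each. The clones were found in a transposon screen for drug resistance. Neither the dose of sonidegib nor whether the clones were kept in drug is stated in the labels. Each clone is a separate isolate, so a difference of 1 clone cannot be told apart from a difference of its mutation. The labels call the parental, sonidegib and R14 replicates biological without naming separate cultures, and p-values measure the spread between these libraries. Tests of Ofd1 mutants counted both R14 libraries separately unless stated, though they are of the same clone and not independent isolates.

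In the Hedgehog pathway the receptor Ptch1 holds Smo, a seven-pass membrane protein, inactive, and loss of Ptch1 frees it; granule cell progenitors of the cerebellum that carry such a loss can form medulloblastoma. When Smo is off, the ciliary receptor Gpr161 keeps cyclic AMP high, protein kinase A (PKA) is active, and PKA, casein kinase 1 alpha and glycogen synthase kinase 3 beta phosphorylate Gli proteins so that they are cut to repressors or degraded. Kif7 is a kinesin that organises the tip of the cilium where Gli and Sufu gather, and Spop directs Gli proteins to a Cul3 ubiquitin ligase. Sonidegib binds Smo and keeps it inactive, while Sufu binds Gli downstream of Smo.

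The stretches before the start of Smo, Kif7, Gpr161 and Prkaca are shown because the results below turn on these members: the first 3 were lower in every clone library than in parental cells, and Prkaca differed between the Ofd1 clones. They are from RefSeq on GRCm38.p6, 250 bases each, read in the direction of the gene, and capitals mark the GC box GGGCGG on either strand. Smo lies at chr6:29735247-29735496 on the plus strand, Kif7 at chr7:79715708-79715957 on the minus strand, Gpr161 (the second of 2 annotated starts) at chr1:165302373-165302622 on the plus strand and Prkaca (the first of 2) at chr8:83972728-83972977 on the plus strand.
Smo: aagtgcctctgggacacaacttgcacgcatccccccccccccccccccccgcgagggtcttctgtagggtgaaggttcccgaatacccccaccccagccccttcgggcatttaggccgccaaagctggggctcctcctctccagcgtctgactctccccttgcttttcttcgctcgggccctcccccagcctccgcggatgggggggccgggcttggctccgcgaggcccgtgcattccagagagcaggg
Kif7: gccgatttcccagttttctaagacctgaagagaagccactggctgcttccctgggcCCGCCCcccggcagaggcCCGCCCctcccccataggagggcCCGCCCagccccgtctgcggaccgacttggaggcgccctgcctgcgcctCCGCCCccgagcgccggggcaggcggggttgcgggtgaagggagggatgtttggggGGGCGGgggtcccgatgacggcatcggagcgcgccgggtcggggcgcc
Gpr161: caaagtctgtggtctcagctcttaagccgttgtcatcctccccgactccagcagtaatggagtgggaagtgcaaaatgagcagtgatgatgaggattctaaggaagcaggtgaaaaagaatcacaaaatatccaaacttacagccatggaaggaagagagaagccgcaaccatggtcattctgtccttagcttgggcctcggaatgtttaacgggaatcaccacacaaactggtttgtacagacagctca
Prkaca: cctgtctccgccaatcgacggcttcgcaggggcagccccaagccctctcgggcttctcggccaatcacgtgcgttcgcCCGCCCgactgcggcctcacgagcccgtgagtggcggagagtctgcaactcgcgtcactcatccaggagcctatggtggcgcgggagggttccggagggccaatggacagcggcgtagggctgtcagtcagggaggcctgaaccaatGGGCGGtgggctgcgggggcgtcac
The Kif7 stretch held 5 GC boxes and that of Prkaca 2, those of Smo and Gpr161 none, and 32.7% of 32851 such stretches of all genes held at least 1. The Gli-binding sequence GACCACCCA was searched on both strands and was in none of the 17 stretches of the 8 members with an entry. It was in 0.225% of all stretches. Its core CCACCCA, which the longer motif contains, was in 1 of the 17, at a start of Prkar1a, and in 8.11% of all. These are matches of letters in short windows and not sites of binding. GC content was 68.4% for Smo, 74.4% for Kif7, 46.8% for Gpr161 and 68.8% for Prkaca. Csnk1a1 and Adrbk1 were not matched.

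Libraries held 24308451 to 38241595 counts. Sonidegib replicate 2 stood apart, with less signal from long transcripts. Each gene's log2 level was taken as a deviation from its mean over all 11 libraries. Across genes this deviation correlated with log2 annotated exon length at -0.43 in that library, against -0.0057 to 0.16 in the other 10 libraries. The first principal component held 42.4% of the variance. On it sonidegib replicate 2 scored -91.1 and replicate 1 -29.5, and the other libraries scored -1.94 to 24.0. The second, with 17.4%, split the libraries another way. Sonidegib replicate 1 and parental replicates 1 and 2 scored 28.7 to 39.1, and the remaining 8 scored -26.4 to -4.45. The mutated genes were checked first. Ofd1 was at 9.27 to 23.4 CPM (read counts scaled to a common library total, with TMM factors) in Ofd1-mutant libraries against 35.4 to 42.9 in parental cells, and Sufu at 2.76 in R13 and 17.7 in R1 against 27.7 to 29.6 in parental cells. Sufu was also at 12.0 to 19.2 CPM in the Ofd1 mutants. The list for granule cell progenitors and medulloblastoma held Atoh1, Barhl1, Zic1, Zic2, Pax6, Neurod1 and Mycn, and 7 of 7 were detected. They summed to 1841 to 1946 CPM in parental cells, 2989 to 3260 with sonidegib, 1494 to 1584 in Sufu and 1746 to 2202 in Ofd1 mutants. Their levels were not taken singly, so the sums do not show which of these genes differed. The 4 microglial markers (Aif1, Cx3cr1, Csf1r and Ptprc) together never passed 0.371 CPM, and Col1a1, Col3a1 and Pdgfrb, Pecam1, Cldn5 and Kdr, Sox10 and Mbp, and Aqp4 and Aldh1l1 each had a mean under 1 CPM. The fibroblast and pericyte list, carried by Pdgfra, summed to 146 to 365 CPM in parental cells, 50.4 to 79.8 with sonidegib, 186 to 465 in Sufu and 219 to 411 in Ofd1 mutants. The astrocyte list, carried by Slc1a3 and Gfap, summed to 326 to 382 CPM with sonidegib, 174 to 240 in parental cells, 117 to 138 in Ofd1 and 76.1 to 105 in Sufu mutants, and the part of either list in the results below was not tested.

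Members differed widely in level. Per kilobase of annotated exon, parental cells held most Prkar1a, the type I regulatory subunit of PKA, at 94.97 ± 21.6 CPM per kb (SD, n = 3), then Smo at 49.97 ± 2.49. Prkaca followed at 43.6 ± 1.61 and Gsk3b at 37.2 ± 1.251. Adrbk1, a kinase that phosphorylates Smo and other G protein-coupled receptors, stood at 32.7 ± 3.32 CPM per kb and overlapped Gsk3b. Csnk1a1 was at 26.7 ± 1.182 and Prkacb at 20.7 ± 1.499 CPM per kb. With the longest transcript in place of all exons Csnk1a1 moved from rank 6 to rank 3, so the order in the middle depends on the length used. Kif7 at 7.23 ± 0.421 and Gpr161 at 2.86 ± 0.0665 CPM per kb were far below the enzymes on either length.

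Spop was hardly counted. The table gave 24, 3 and 4 reads for Spop in parental replicates 1, 2 and 3, 4 and 4 with sonidegib, 5 in R13, 8 in R1, 17 and 1 in the R14 libraries, 0 in R16 and 3 in R25. The 0 of R16 allows up to 0.0975 CPM (3 counts, counting error only). Its relative Spopl, which also binds Cul3, was at 26.8 ± 0.218 CPM in parental cells (n = 3). None of 3265 annotated 75-base windows of Spop occurs in a transcript of another gene, and no exon of another annotated gene overlaps it in GENCODE M21. The annotation used for counting is not named, and whether the low count reflects the level of the transcript was not tested. Spop passed the filter on low counts in 2 comparisons, those with the Sufu mutants. It had no difference past the test there, with log2 differences of -0.22 ± 1.09 (SE) against parental cells and -0.75 ± 1.30 for Ofd1 against Sufu mutants.

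Smo, the target of sonidegib, was lower in the clones than in parental cells but not with the drug. Smo stood at 297, 274 and 272 CPM in parental replicates 1, 2 and 3, at 298 and 313 with sonidegib, at 187 in R13 and 174 in R1, and at 193, 256, 226 and 165 in the Ofd1-mutant libraries of R14, R14, R16 and R25. All 6 clone libraries thus lay below all 3 parental libraries, and both drug-treated libraries lay above them. The log2 difference was -0.63 ± 0.13 in Sufu mutants (edgeR adjusted p = 0.315) and -0.41 ± 0.15 in Ofd1 mutants (adjusted p = 0.264). Neither passed over all genes by edgeR. DESeq2 called the difference in Sufu mutants (adjusted p = 0.00367) and not in Ofd1 mutants (0.152). With sonidegib the difference was 0.12 ± 0.19 (adjusted p = 0.782).

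Kif7 also lay lower in the clones. Its parental levels were 33.2, 35.05 and 31.2 CPM, its clone levels 24.9 in R13, 27.5 in R1, 24.97 and 24.02 in R14, 25.7 in R16 and 12.6 in R25, and its sonidegib levels 37.6 and 21.0 in replicates 1 and 2. Every clone lay below the parental range, with R25 lowest, and the drug-treated libraries lay on both sides of it. The log2 difference was -0.32 ± 0.16 in Sufu mutants (adjusted p = 0.589) and -0.60 ± 0.23 in Ofd1 mutants (adjusted p = 0.306), and DESeq2 called neither (0.520 and 0.177). Without R25 the Ofd1 difference was -0.41 (adjusted p = 0.153), and over 15 alternative fits it ran from -0.69 to -0.41. Of the 75-base windows of Kif7, 14.4% also match an antisense RNA, 9330171B17Rik, and 51 bases of its exons lie opposite Ticrr. The kit marks strand, and no label says whether the counting used it, so the count of Kif7 is less certain than the others.

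Gpr161 was about level among parental libraries, at 19.5, 20.4 and 19.9 CPM, and lower in every clone. It stood at 9.06 in R13 and 11.2 in R1, and at 13.2, 13.7, 12.3 and 14.5 in the R14, R14, R16 and R25 libraries. Neither class overlapped the parental range, and the Sufu clones lay below all Ofd1 libraries. The log2 difference was -0.96 ± 0.20 in Sufu mutants (edgeR adjusted p = 0.315, DESeq2 0.00151) and -0.56 ± 0.13 in Ofd1 mutants (edgeR adjusted p = 0.115, DESeq2 8.85e-04). Ofd1 against Sufu mutants gave 0.39 ± 0.19 (adjusted p = 0.586), so a difference between the classes was not shown. With sonidegib, replicate 1 held 22.1 CPM and replicate 2 held 1.70, from 662 and 57 counts.

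Adrbk1 was the member that lay higher in the clones. The gene encodes the kinase also known as GRK2, which acts on Smo and is needed for full Hedgehog output in vertebrate cells. Parental libraries were at 134, 142 and 163 CPM, sonidegib libraries at 131 and 136, R13 at 184 and R1 at 164, and Ofd1-mutant libraries at 214, 182, 206 and 217. All 6 libraries of the 5 clones lay above the parental range, R1 by little over parental replicate 3. The log2 difference was 0.49 ± 0.11 in Ofd1 mutants (edgeR adjusted p = 0.115, DESeq2 0.00562) and 0.26 ± 0.15 in Sufu mutants (edgeR adjusted p = 0.620, DESeq2 0.628). With parental replicate 3 as the only control these were 0.33 and 0.10, and without R13 the Sufu difference was 0.17.

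**Figure D1:**
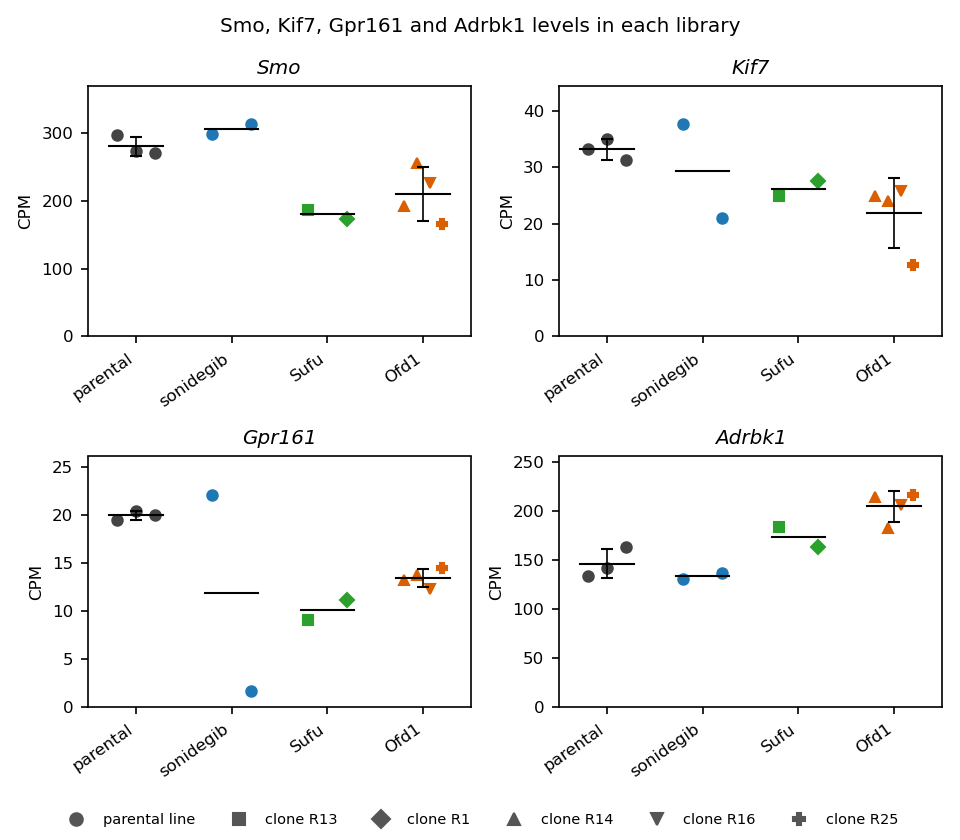
Level of Smo, Kif7, Gpr161 and Adrbk1 in CPM (y axis) in each library of the 4 groups (x axis); each symbol is a library, its shape gives the clone, the line is the group mean and the bar, drawn for groups of 3 or more, the SD. Clone libraries lie below the parental ones for Smo (165 to 256 against 272 to 297 CPM), Kif7 and Gpr161 and above them for Adrbk1, and Gpr161 is at 1.70 CPM in sonidegib replicate 2.

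Over the members the count was as follows. In Ofd1 mutants against parental cells, 0 of 9 tested members were called by edgeR, where 0.363% of all 13779 genes were. At an unadjusted p under 0.05 there were 5 (Smo, Kif7, Gpr161, Prkaca and Adrbk1), against 13.8% of all genes, and DESeq2 called 2, Gpr161 lower and Adrbk1 higher, against 5.46%. Both R14 libraries, of the same clone, entered these tests as separate libraries. In this comparison 4 of 9 (Smo, Kif7, Gpr161 and Gsk3b) lay below the parental libraries in every library, where 7.25% of all genes did, and 1 lay above, where 6.17% did. The members' median log2 difference was -0.20, and that of all genes tested 0.0079.

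In Sufu mutants against parental cells, edgeR called 0 of 10 members and 0.00% of all 13854 genes. At an unadjusted p under 0.05 there were 2 members, Smo and Gpr161, against 9.68% of genes, and the same 2 were called by DESeq2, against 2.40%. Both clones lay below the parental libraries for 5 members (Smo, Kif7, Gpr161, Prkaca and Prkacb), where 14.8% of all genes did, and above them for Adrbk1, where 11.9% did. The median was -0.19, and 0.0043 over all genes. The comparisons of the clone classes share their 3 parental libraries, so the order seen in both is not repeated evidence. All 6 clone libraries lay below the parental range for 3 of 9 members and above it for 1, where 3.47% and 2.70% of 13648 genes did.

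The PKA subunits had unlike patterns. Prkaca, the alpha catalytic subunit, was at 110, 104 and 112 CPM in parental cells and at 167, 161 and 140 in the R14, R14 and R16 libraries, while R25 held 103.5. The Sufu clones were at 87.6 and 97.4 CPM and the sonidegib libraries at 102 and 155. The R14 and R16 libraries thus lay above every parental one, R25 (103.5) was just under the lowest parental library (103.9), and both Sufu clones lay below the parental range. The log2 difference was 0.40 ± 0.16 in Ofd1 mutants (adjusted p = 0.313) and -0.22 ± 0.13 in Sufu mutants (adjusted p = 0.639). Without R25, the lowest Ofd1 library, the Ofd1 difference was 0.53 (adjusted p = 0.0577). Over 15 alternative fits it ran from 0.32 to 0.53. Between the classes the log2 difference was 0.61 ± 0.21, with an unadjusted p of 0.0211 and an adjusted p of 0.478 by edgeR.

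Prkacb, the beta catalytic subunit, varied least among the Ofd1-mutant libraries. They held 182, 179, 181 and 176 CPM, against 185, 168 and 194 in parental cells, 156 in R13, 167 in R1, and 195 and 102 in sonidegib replicates 1 and 2. The Ofd1 range lay inside the parental range, and sonidegib replicate 2 was lowest of all libraries. Its log2 differences were -0.011 ± 0.091 in Ofd1 and -0.16 ± 0.13 in Sufu mutants. The ratio of Prkaca to Prkacb counts was 0.577 to 0.620 in parental cells, 0.561 and 0.581 in the Sufu clones, 0.917, 0.900 and 0.770 in the R14, R14 and R16 libraries and 0.589 in R25. The ratio of the R25 library thus lay within the parental range, while the R14 and R16 libraries lay above it. R16 and R25 are 1 library each. Sonidegib replicates 1 and 2 were at 0.524 and 1.53, either side of all parental libraries. Neither gene shares a 75-base window with another annotated transcript.

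Prkar1a, the regulatory subunit that holds PKA catalytic subunits inactive until cyclic AMP binds, was at 382, 335 and 515 CPM in parental cells. The sonidegib libraries held 399 and 413 CPM, the Sufu clones 401 and 456, and the Ofd1 libraries 360, 359, 326 and 338. Parental replicate 3 was highest of all 11 libraries, and the Ofd1 libraries lay below both Sufu clones. The log2 difference was -0.33 ± 0.11 between Ofd1 and Sufu mutants (unadjusted p = 0.0230, adjusted p = 0.478), -0.24 ± 0.15 in Ofd1 mutants against parental cells (adjusted p = 0.531; -0.57 with parental replicate 3 as the only control and -0.37 to -0.056 without 1 parental library) and 0.077 ± 0.21 in Sufu mutants (adjusted p = 0.925).

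Of the Gli kinases, Gsk3b was lower in the Ofd1 libraries without passing the test, and the groups overlapped for Csnk1a1. Gsk3b was at 371, 351 and 374 CPM in parental cells and at 306, 332, 330 and 301 in the Ofd1 libraries, with 301 in R13, 388 in R1 and 380 and 253 in sonidegib replicates 1 and 2. The Ofd1 libraries lay below the parental range by a log2 difference of -0.20 ± 0.090 (adjusted p = 0.383), and the Sufu clones fell on both sides of it. Csnk1a1 was at 291, 267 and 284 CPM in parental cells, 272 in R13, 324 in R1, 261 to 284 in the Ofd1 libraries and 292 and 208 with sonidegib. Its log2 differences were -0.044 ± 0.089 in Ofd1 and 0.10 ± 0.14 in Sufu mutants (adjusted p = 0.870 and 0.845).

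**Figure D2:**
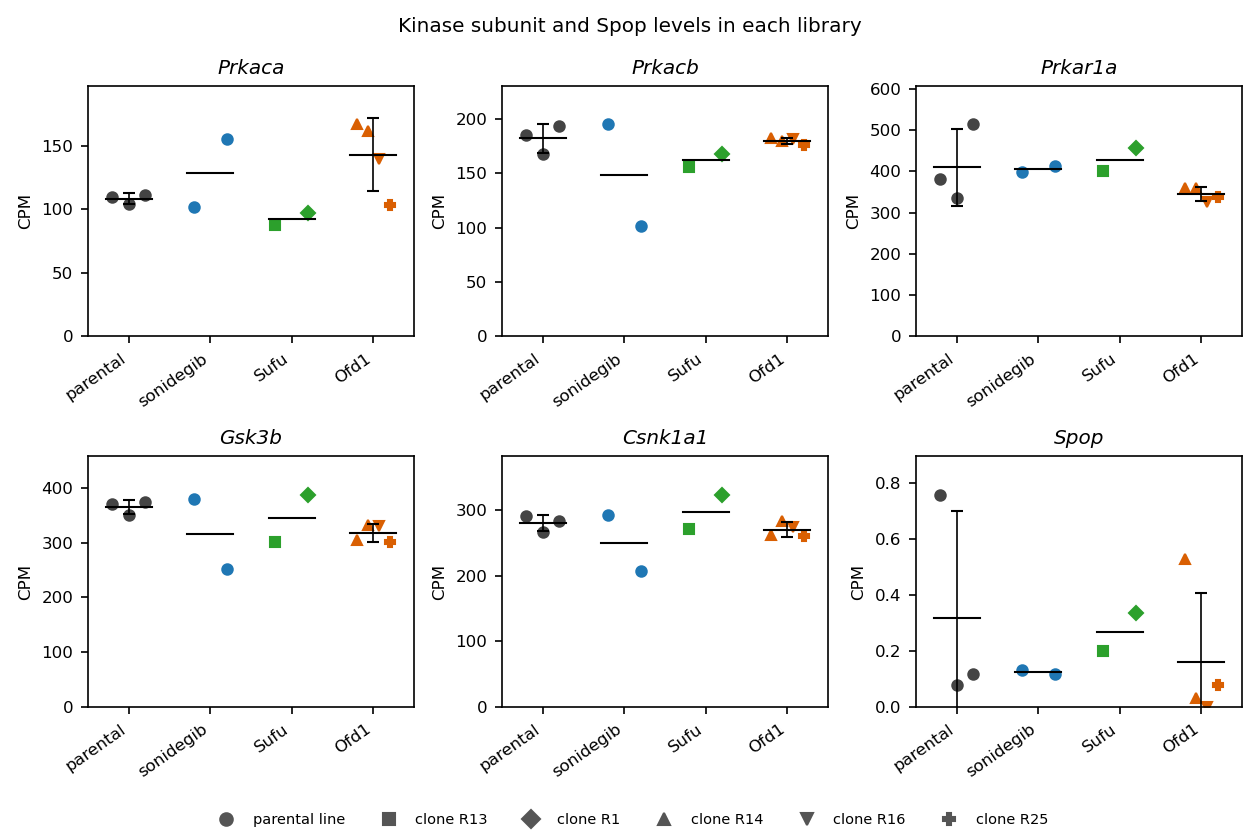
Level of Prkaca, Prkacb, Prkar1a, Gsk3b, Csnk1a1 and Spop in CPM (y axis) in each library of the 4 groups (x axis), with symbols by clone, a line at the group mean and an SD bar for groups of 3 or more. Prkaca is at 140 to 167 CPM in R14 and R16 and at 103.5 in R25, and Spop is at most 0.760 CPM in every library.

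For Ofd1 against Sufu mutants as a whole, edgeR called 0 of 10 members and 0.00713% of all 14026 genes. The unadjusted p was under 0.05 for Prkaca and Prkar1a, against 8.93% of genes, and DESeq2 called none of the members and 1.84% of genes. All Ofd1 libraries lay above both Sufu clones for Gpr161, Prkaca and Prkacb, where 9.85% of genes did, and below them for Prkar1a, where 8.34% did. The median over the members was -0.00084, and over all genes -0.0033.

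**Figure D3:**
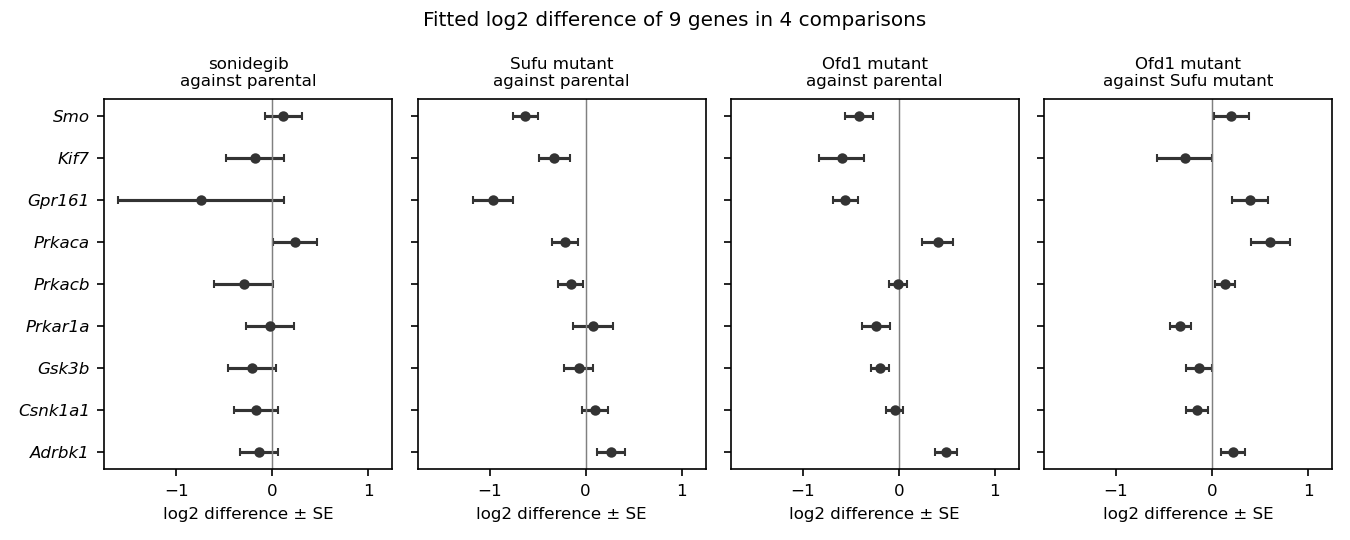
Fitted log2 difference (x axis, point) with its SE (bar) of 9 members (rows) in the 4 comparisons (panels). Smo, Kif7 and Gpr161 lie left of 0 and Adrbk1 right of 0 in both clone classes, and the widest bar is that of Gpr161 with sonidegib (-0.74 ± 0.87).

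No member passed the test after 24 h of Smo inhibition, and for Gpr161, Kif7, Prkaca, Prkacb, Gsk3b and Csnk1a1 the 2 treated libraries differed widely. By edgeR 0 of 9 members were called, against 0.0652% of all 13809 genes, none had an unadjusted p under 0.05 (14.04% of genes), and DESeq2 called none (5.15%). Both treated libraries lay above the parental range for 1 of 9 members, Smo, where 18.0% of genes did, and below it for 0, where 16.3% did. The log2 differences ran from -0.74 ± 0.87 for Gpr161 to 0.24 ± 0.23 for Prkaca, with a median of -0.17, against 0.036 over all genes. In the same libraries Gli1, a transcriptional target and effector of the pathway, was at 7.68 and 8.82 CPM, against 220 to 243 in parental cells. Ptch1, another target of the pathway, was split like Gpr161, with 37.5 CPM in sonidegib replicate 1 and 1.19 in replicate 2 against 66.1 to 87.1 in parental cells. Its log2 difference was -2.004 ± 1.11 (edgeR adjusted p = 0.435, DESeq2 0.461).

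Long members were lower in sonidegib replicate 2 than in replicate 1. Gpr161, with a longest transcript of 6862 bases, had a log2 difference of -3.65, and 0.561% of 10875 genes were lower still. Genes with transcripts of 6000 to 8000 bases had a median of -0.60 between the same libraries. Prkacb (4347 bases) differed by -0.94, Kif7 (4577 bases) by -0.84 and Csnk1a1 (4083 bases) by -0.49, where genes of 4000 to 6000 bases had a median of -0.29. Gsk3b (8303 bases) differed by -0.59, less than the median of -0.75 for genes over 8000 bases. Prkaca, the shortest at 2276 bases, differed by 0.61, where genes of 2000 to 4000 bases had a median of 0.14. Smo, Prkar1a and Adrbk1 differed by 0.071, 0.048 and 0.057. The extent to which length accounts for these differences was not tested. Without sonidegib replicate 1, Gpr161 was at -3.60 ± 0.30 (adjusted p = 0.00859) and Prkacb at -0.89 ± 0.17 (adjusted p = 0.0247) and both were called, as were 23.0% of genes. Without sonidegib replicate 2 they were at 0.13 and 0.081.

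**Figure D4:**
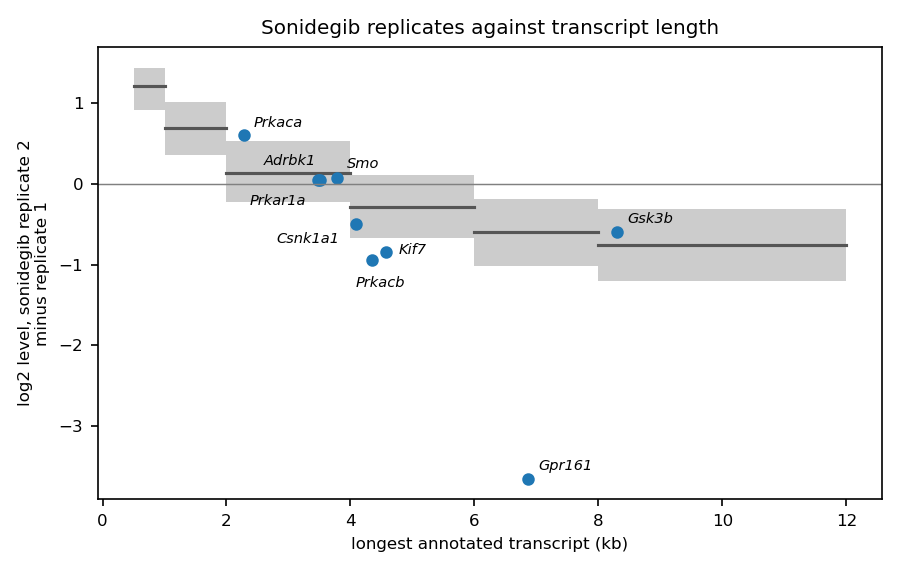
Difference of log2 level between sonidegib replicates 2 and 1 (y axis) against the longest annotated transcript in kb (x axis): blue points are 9 members, dark lines and grey boxes the median and middle 50% of all genes in each length class, the last class being open above and drawn to 12 kb. Gpr161 lies at -3.65, far under its class median of -0.60.

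Other genes of the pathway were taken from a list of 62 names, of which 61 were in the table and 59 were tested in each comparison. The list holds other PKA, casein kinase, GSK3, receptor kinase and ubiquitin ligase genes, Smo partners, G proteins and adenylyl cyclases, with the Gli genes and Hhip. With sonidegib, 3 of 59 fell and 0 rose by edgeR, where 0.0652% of all genes were called in either direction, and 2 of the 3 are reported here. Gli1 had a log2 change of -4.80 ± 0.24 and the Hedgehog-binding Hhip one of -3.51 ± 0.29, with edgeR adjusted p of 0.00287 and 0.0309. DESeq2 called both (adjusted p = 6.38e-95 and 5.88e-27). With parental replicate 1, 2 or 3 left out edgeR called 1, 2 or 0 genes of the whole table, and with sonidegib replicate 2 left out 1 gene, so at least 1 of the 3 edgeR calls was lost each time. Gli1 and Hhip are known targets of the pathway, and 0 of the kinases, ligases and cyclases of the list were called. In Sufu mutants, in Ofd1 mutants and between the classes 0 of 59 were called by edgeR. At an unadjusted edgeR p under 0.05 there were 7, 9 and 4 of 59, where 9.68%, 13.8% and 8.93% of all genes were. DESeq2 called some genes of the list in each clone class against parental cells, with Evc among them in both. The list's median was -0.17 with sonidegib, 0.025 in Sufu mutants, -0.055 in Ofd1 mutants and -0.037 between the classes, beside 0.036, 0.0043, 0.0079 and -0.0033 over all genes tested.

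Evc and Tulp3 of that list had a low unadjusted p and were chosen after their values were seen. Tulp3 was not next to Evc in rank: in Ofd1 mutants Sufu and Smurf1 (given below) had a lower unadjusted p. For Sufu in Ofd1 mutants the log2 difference was -0.94 ± 0.19 (edgeR adjusted p = 0.0790, DESeq2 3.13e-04). DESeq2 called 5.46% of all genes in Ofd1 mutants and 2.40% in Sufu mutants. Evc, a ciliary partner of active Smo, was at 31.4 ± 3.23 CPM in Ofd1 mutants (n = 4) and 30.03 ± 0.245 in Sufu mutants (n = 2), against 52.2 ± 6.69 in parental cells (n = 3). The log2 differences were -0.73 ± 0.13 (edgeR adjusted p = 0.0644, DESeq2 1.85e-04) and -0.78 ± 0.17 (edgeR adjusted p = 0.318, DESeq2 0.00853), so DESeq2 called both. Tulp3, which carries Gpr161 and other receptors into the cilium, was at 163 ± 16.5 CPM in Ofd1 mutants against 221 ± 14.5, a log2 difference of -0.43 ± 0.11 (edgeR adjusted p = 0.147), which DESeq2 called (0.0169).

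Genes whose log2 levels followed those of Smo, Kif7 and Gpr161 across the 11 libraries were sought among the 10403 genes whose mean level reached 5 CPM. For Smo they were Zfp422 (Pearson r = 0.96), Grhl3 (0.94) and Lmo1 (0.93). For Kif7 they were Kdm2b (0.92), Dnm1l (0.91) and Ccdc50 (0.91), and for Gpr161 Gpam (0.98), Zfp334 (0.97) and Erbb2ip (0.97). The libraries share group and, for sonidegib replicate 2, the trend on transcript length, and that library has by far the lowest Gpr161, so these values are descriptions of this set.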

How the data were processed

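Poly(A) RNA was measured in 11 SMB21 libraries made with a stranded kit and read from 1 end at 75 bases, per the labels' protocols. The authors deposited raw counts of reads per gene symbol, 1 column per library; the submitters' processing notes name STAR, DESeq2 and build mm9, and no label or header names the counting tool or annotation. An entry without a gene name, 0.0131% to 0.0192% of a library, was left out, which left 22619 genes.

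Groups were compared in pairs over all genes with the edgeR 4.0.16 quasi-likelihood test in R 4.3.3 (robust, TMM scaling, filterByExpr, Benjamini-Hochberg adjustment over all genes tested, called at adjusted p under 0.05, two-sided). DESeq2 1.42.0 was the alternative test. Levels are CPM of the TMM-scaled total of all 11 libraries; the SE is the log2 difference over the root of F. Lengths come from GENCODE M21 (GRCm38) by symbol for 22322 of 22620 entries, 1135 through an older symbol. The procedure was tested on simulated data. Members and lists were chosen with earlier results of these data known. The rule for named genes took all members, called genes of the pathway list, and the 3 genes nearest in pattern to Smo, Kif7 and Gpr161. Alternatives were scaling, filter, test, a joint fit, removal of each library's length trend, summed R14 libraries, a replicate block and each library left out. Limits for 0 counts cover counting error only. The result of 1 gene of the pathway list is not reported here.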

Additional observations from a re-analysis of the deposited data

Results flagged for a closer look

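Kif7 was flagged because 1 library lay far from the other 3 of its group: clone R25 held 12.6 CPM while the other Ofd1-mutant libraries held 24.0 to 25.7, so that the gap took 0.868 of the range, above Dixon's 95% limit for a group of that size. Spop was flagged in the same way, with 0.528 CPM (17 counts, gap 0.853 of the range) in R14 replicate 1 against 0 to 3 counts in the other 3 libraries. Chance flags about 1 in 20 groups of independent values, and 10 genes were looked at. Both R14 libraries are of the same clone, so that rate is only a rough guide here.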

How the results depend on the processing

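By edgeR no member was called in any comparison under any scaling, filter or joint fit. DESeq2 called 2 in Sufu and 2 in Ofd1 mutants against parental cells. With 1 library left out, the members called with sonidegib ranged from 0 to 2 and stayed at 0 in the other comparisons. The number of all genes called moved far more: with sonidegib it was 9, and 711 by DESeq2, 5 without TMM, 109 without the filter, 316 in the joint fit, 46 with the length trend removed, 0 to 3263 with 1 library left out and 1393 with parental replicates 1 and 2 and sonidegib replicate 1 only (a choice made after seeing the data). In Sufu mutants it was 0, and 326 by DESeq2, 3 without the filter and 0 to 11 with 1 library left out. In Ofd1 mutants it was 50, and 770 by DESeq2, 84 without the filter, 9 in the joint fit, 1 with the R14 libraries summed, 0 to 329 with 1 library left out and 0 with parental replicate 3 as the only control. Between the classes it was 1, and 266 by DESeq2, 2 without the filter, 0 with R14 summed and 0 to 11 with 1 library left out. The replicate block, over numbers shared by parental and sonidegib libraries, called 97 genes and 0 members. Deviations of same-numbered libraries from their group means correlated at 0.25 and -0.33. The deviations of the 2 sonidegib libraries are equal with opposite sign, so these values are not separate checks. They cannot decide whether the numbers pair the samples, and the main fits used no pairing.

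Smo, Kif7, Gpr161 and Adrbk1 kept their sign in both clone classes under every alternative run. Signs turned as follows, and the cause was not tested. With sonidegib and 1 library left out, log2 differences ran from -0.71 to 0.16 for Kif7, -3.60 to 0.13 for Gpr161, -0.11 to 0.47 for Prkaca, -0.89 to 0.081 for Prkacb, -0.18 to 0.15 for Prkar1a, -0.59 to 0.040 for Gsk3b and -0.49 to 0.041 for Csnk1a1. The ends turned in sign came without sonidegib replicate 2, or for Prkar1a without parental replicate 3. With parental replicates 1 and 2 and sonidegib replicate 1 only, Kif7 was at 0.12, Gpr161 at 0.13, Prkaca at -0.086, Prkacb at 0.13, Prkar1a at 0.14, Gsk3b at 0.055 and Csnk1a1 at 0.048. With the length trend removed Prkaca was at -0.0078 and Csnk1a1 at 0.062, and with the replicate block Prkar1a was at 0.17. In Sufu mutants with 1 library left out, the range was -0.046 to 0.28 for Prkar1a (also -0.02 without R1), -0.27 to 0.094 for Gsk3b, -0.033 to 0.21 for Csnk1a1 and -0.63 to 0.10 for Spop, and Prkar1a was at -0.25 with parental replicate 3 as the only control. In Ofd1 mutants Prkacb was at 0.0053 without TMM and ranged from -0.067 to 0.024 with 1 library left out. Between the classes Gsk3b ranged from -0.30 to 0.054. All 40 group means moved by less than 1 SD with CPM of the plain total. Where a group kept 1 library, it was assumed to vary like the other group.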

Other observations

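Further genes of the pathway list, chosen here after their values were seen, had unadjusted p under 0.05 and did not pass over all genes by edgeR. DESeq2 called all 3, where it called 5.46% of all genes in Ofd1 mutants and 2.40% in Sufu mutants. It called other genes of the list too, so these 3 are examples. Prkar2a, the type II alpha regulatory subunit of PKA, was at 113 ± 5.31 CPM in Ofd1 mutants (n = 4) against 91.3 ± 1.99 in parental cells (n = 3), a log2 difference of 0.31 ± 0.089 (edgeR adjusted p = 0.176, DESeq2 0.0174). Gnai1, an inhibitory G protein subunit, was at 39.5 ± 13.4 CPM in Sufu mutants (n = 2) against 13.8 ± 5.80, a log2 difference of 1.53 ± 0.39 (edgeR adjusted p = 0.361, DESeq2 0.0110). Smurf1, a ubiquitin ligase, was at 94.1 ± 19.2 CPM in Ofd1 mutants against 56.9 ± 5.20, a log2 difference of 0.73 ± 0.17 (edgeR adjusted p = 0.117, DESeq2 0.00642).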
